A study of Homo sapiens with 2 samples.

Results

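All S9.6 peaks listed on human chromosome 8 are described here by arm and by 5 Mb window: 2411 peaks, or 5.04% of the 47810 in the deposited list and 5.27% (95% Wilson interval 5.07 to 5.48) of the 45756 on chromosomes 1 to 22 and X. They were chosen by chromosome name alone, so neither height nor position along the chromosome entered the choice. Wild-type cells of A549, a human lung adenocarcinoma line, gave 2 CUT&Tag libraries. The first used S9.6, an antibody against RNA-DNA hybrids, and supplied the peaks. The other used non-specific IgG and was not analysed here. In CUT&Tag a transposase tethered by the antibody cuts and tags the DNA beside it. Without a replicate, no comparison between samples was made. Intervals cover counting error only, and differences between regions were not tested.

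R-loops form when nascent RNA pairs with the DNA template behind RNA polymerase and displaces the other DNA strand. They are known to be common at the starts and ends of actively transcribed genes, and helicases, RNase H enzymes and topoisomerases keep them in check. Chromosome 8 carries a long arm that ends in 8q24, known for the MYC oncogene and its neighbour PVT1, and a short arm with a defensin cluster at 8p23 and the FGFR1 region at 8p12 to 8p11. Gains of 8q24 and losses of 8p are common in human tumours. Copy number was not measured in these data.

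Each peak in the list has a width, a total signal (coverage summed over its bases) and a maximum coverage. On chromosome 8 widths ran between 178 and 3399 bp with a median of 691 bp, and total signal between 745 and 15412 with a median of 1000. Maximum coverage ran between 1 and 37 with a median of 2. The medians over the other chromosomes were 685 bp, 986 and 2, so chromosome 8 peaks were of ordinary size. A maximum of 5 or more was reached by 201 of the chromosome 8 peaks (8.34%, 95% Wilson interval 7.30 to 9.51), against 9.61% on the other chromosomes and 9.54% over all of them. At 10 or more the shares were 0.871% on chromosome 8 and 1.41% on the others.

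Chromosome 8 had many peaks for few genes. It carried 16.6 peaks per Mb (exact 95% Poisson interval 16.0 to 17.3), against 15.0 on the other chromosomes together, and 4.93 protein-coding genes per Mb, against 6.68. Among 23 chromosomes it stood at rank 9 in peaks per Mb and at rank 20 in protein-coding genes per Mb. Its 3.37 peaks per protein-coding gene compared with 2.25 elsewhere, a value exceeded on chromosomes 22 (4.76) and 20 (4.08). Without the last 5 Mb window of 8q, described next, chromosome 8 had 11.9 peaks per Mb and 2.74 per protein-coding gene.

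The peaks were spread very unevenly along the chromosome. Dividing the arms at 45 Mb, near the centromere, 8q held 1867 peaks and 8p held 544, or 18.7 and 12.1 peaks per Mb, a ratio of 1.54 (95% interval 1.40 to 1.70). That ratio rested on the end of 8q: without the last window of 8q it was 0.982 (0.886 to 1.09), and without the 5 Mb next to both chromosome ends it was 0.928 (0.835 to 1.03). Beyond that window the arms therefore had similar average densities within counting error, though 8q itself was uneven. It had 8.21 peaks per Mb before 8q24 and 23.2 in 8q24 before 140 Mb. The peaks nearest the division were low on both sides, with a maximum of 2 at 44873264 to 44873910 on 8p and 2 at 45274021 to 45274820 on 8q.

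The last window of 8q, from 140 to 145.1 Mb, held 739 peaks (30.7% of the chromosome's peaks) on 3.49% of its length. Its 146.2 peaks per Mb (135.8 to 157.1) compared with 11.9 over the rest of chromosome 8. It also held the most protein-coding genes of the 29 windows, 105 of 715. The next 4 windows by peaks were much lower: 153 at 125 to 130 Mb, 147 at 130 to 135 Mb, 141 at 20 to 25 Mb and 134 at 135 to 140 Mb. The fewest peaks lay at 75 to 80 Mb (14), 110 to 115 Mb (15), 80 to 85 Mb (22) and at 0 to 5 and 10 to 15 Mb (31 each). The highest peaks of the dense windows lay at TRIB1 (maximum 13) at 125 to 130 Mb, NDRG1 (9) at 130 to 135 Mb and ATP6V1B2 (8) at 20 to 25 Mb. In the sparse windows they reached 2 at 75 to 80 Mb, 3 at 110 to 115 Mb, 4 at the fatty acid binding protein gene FABP5 at 80 to 85 Mb and 6 inside ERICH1 at 0 to 5 Mb. The sparse window at 10 to 15 Mb held one of 23, at FAM86B1. No 1 Mb step of the chromosome was without a peak.

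**Figure D1:**
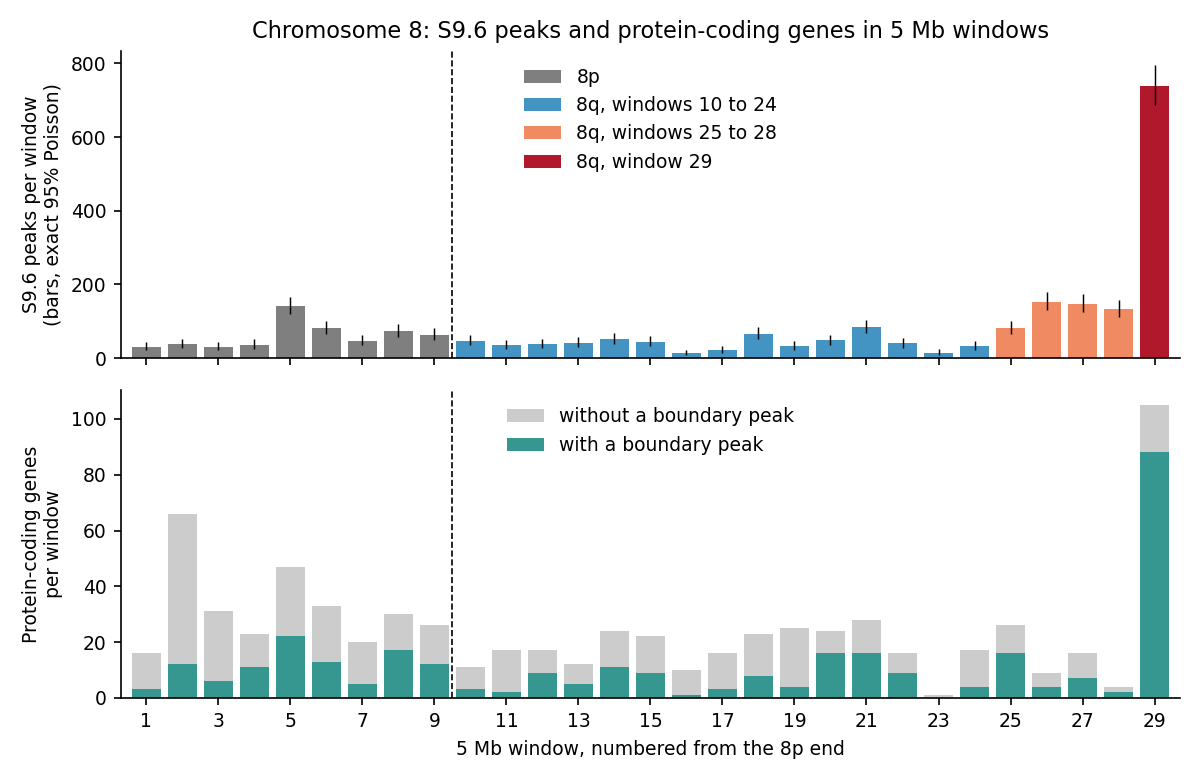
Upper panel, S9.6 peaks in each 5 Mb window of chromosome 8, numbered from the 8p end, with exact 95% Poisson intervals; lower panel, protein-coding genes per window, with and without a boundary peak. The dashed line marks the division of the arms at 45 Mb. Window 29, the end of 8q, has 739 peaks and 105 genes, and no other window exceeds 153 peaks.

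By rank, peak number followed gene number less closely over chromosome 8 windows than over the pooled windows of the other chromosomes. Pearson's r, which the last window raises, was slightly higher on chromosome 8. Over its 29 windows the rank correlation of peaks with protein-coding genes was 0.317 and Pearson's r 0.754. Without the last window they were 0.241 and 0.070 over 28 windows. Over the 577 windows of the other chromosomes, pooled, the coefficients were 0.716 and 0.706. A pool also holds differences between chromosomes, and no coefficient was computed within another single chromosome. Windows of one library share its depth and are not replicates, so these are descriptions. The departures were of both kinds. The window at 5 to 10 Mb on 8p held 66 protein-coding genes and 39 peaks, whereas windows with 9 genes (125 to 130 Mb), 16 genes (130 to 135 Mb) and 4 genes (135 to 140 Mb) each held over 130 peaks. With windows of 2.5 Mb the rank correlation was 0.501, and with peaks of maximum coverage 5 or more in 5 Mb windows it was 0.549.

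Set among all 606 windows of 5 Mb in the genome, the end of 8q had the most peaks, in number and per Mb, while standing at rank 27 in protein-coding genes. The windows that followed were on chromosome 19, with 547 peaks and 182 genes at 45 to 50 Mb and 528 peaks and 137 genes at 40 to 45 Mb, and on chromosome 16, with 509 peaks and 197 genes at 0 to 5 Mb. The 28 windows of other chromosomes nearest to it in gene number, by ratio, had between 33 and 393 peaks, with a median of 175.5. Ends of chromosomes varied widely. Among the last windows of 23 chromosomes, 8q was followed in peak number by chromosomes 16 (463 peaks), 14 (441) and 22 (406). Those of chromosomes 1, 4 and 11 had 36, 34 and 32. The last windows differ in length. Per Mb, 8q (146.2) was followed by chromosomes 17 (96.0), 9 (91.2) and 16 (88.6), and chromosome 14 had 64.1.

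**Figure D2:**
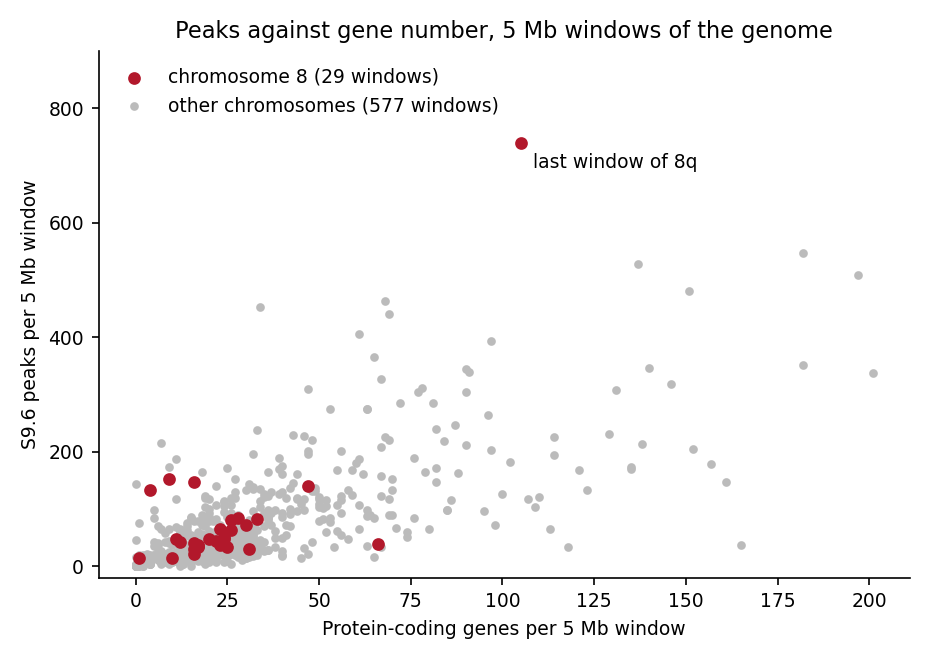
S9.6 peaks against protein-coding genes in 5 Mb windows, with the 29 windows of chromosome 8 in red and 577 windows of the other chromosomes in grey. The end of 8q lies above every other window at 739 peaks, and most other chromosome 8 windows lie among the grey points.

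Within 8q24, taken here from the lower end of RAD21 at 116845934 to the last annotated feature at 145056030, lay 1277 peaks, 53.0% (51.0 to 55.0) of those on the chromosome, on 19.4% of its length, which carries 174 of its 715 protein-coding genes. Peaks per Mb were 45.3 in 8q24, against 8.21 in the rest of 8q and 12.1 on 8p. In 1 Mb steps there were 62 peaks at 140 to 141 Mb, 176 at 141 to 142 Mb, 192 at 142 to 143 Mb, 161 at 143 to 144 Mb and 148 over the remainder. The same steps held 5, 5, 16, 32 and 47 protein-coding genes, so gene number was highest 2 steps beyond the step with most peaks. The step from 141 to 142 Mb thus had 176 peaks and 5 protein-coding genes.

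**Figure D3:**
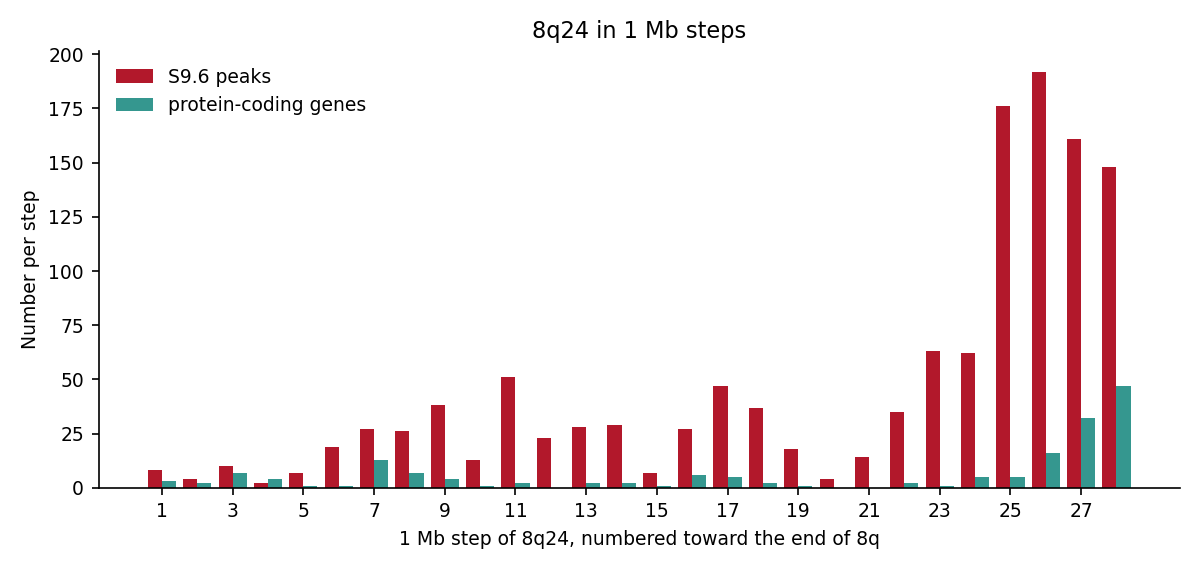
S9.6 peaks (red) and protein-coding genes (green) in 28 steps of 1 Mb along 8q24 from 117 Mb, numbered toward the end of 8q. Peaks reach 176 at step 25 and 192 at step 26, while gene number is highest, at 47, in step 28.

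Each summit, the middle of the authors' region of maximum coverage, was placed at a gene boundary (within 1000 bp of either end of the span of a protein-coding or lncRNA gene), inside a gene or between genes. The end of 8q was denser in all 3 classes. At boundaries it had 257.0 summits per Mb of such sequence, inside genes 123.3 and between genes 148.6, whereas the rest of chromosome 8 had 51.0, 11.2 and 9.49. The other chromosomes had 67.5, 15.0 and 9.74. Between genes, the end of 8q thus carried 148.6 summits per Mb with a 95% interval of 130.9 to 168.0, above the other regions of the chromosome.

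Peaks at the end of 8q were also higher. A maximum coverage of 3 or more was reached by 69.8% (66.4 to 73.0) of its peaks, against 37.0% (34.7 to 39.4) over the rest of chromosome 8 and 45.3% on the other chromosomes. This was seen within each class, at 84.2% against 69.8% for boundary summits, 63.9% against 31.2% inside genes and 70.1% against 30.2% between genes. At 5 or more the shares were 11.8% (9.64 to 14.3) at the end of 8q and 6.82% (5.71 to 8.13) over the rest. Among the 10 densest windows of the genome, shares at 3 or more ran between 53.2% and 69.8%, the end of 8q at the top, and shares at 5 or more between 8.19% and 19.9%, with 11.8% at the end of 8q.

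**Figure D4:**
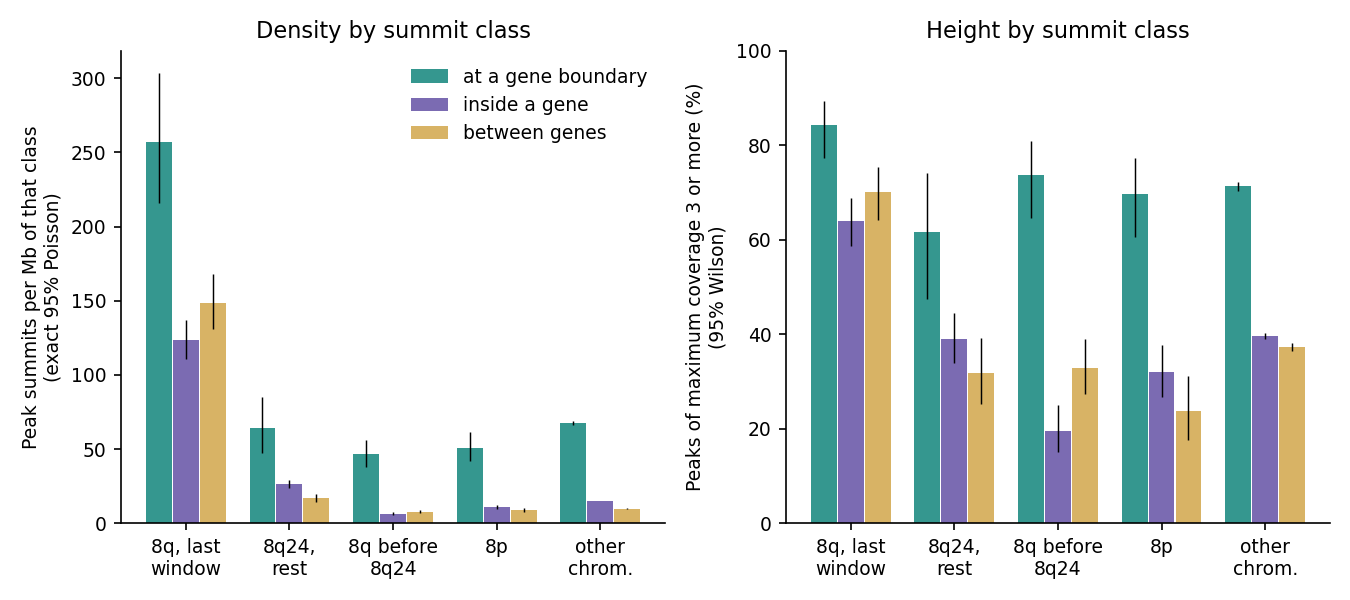
Left, peak summits per Mb of sequence at gene boundaries, inside genes and between genes, with exact 95% Poisson intervals; right, percent of peaks in each class with a maximum coverage of 3 or more, with 95% Wilson intervals. In the last window of 8q all 3 classes are denser than in the other regions, at 257.0, 123.3 and 148.6 per Mb.

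Boundaries held more summits than their share of sequence in every region of chromosome 8, with the smallest excess at the end of 8q. Boundary sequence was 4.00% of chromosome 8 and held 16.9% of summits, a ratio of 4.22, against 4.50 on the other chromosomes. The ratio was 4.22 on 8p, 5.68 on 8q before 8q24, 2.75 in 8q24 before 140 Mb and 1.76 in the last window, where 10.7% of the sequence was boundary. Counting any base of a peak, 467 chromosome 8 peaks (19.4%, 17.8 to 21.0) touched a boundary, against 23.5% on the other chromosomes and 23.3% over all. The share was larger among higher peaks, at 59.7% among peaks of maximum coverage 5 or more, near the 61.5% of all such peaks in the list, and was 9.95% among peaks of 1 or 2. In 8q24 the peaks of maximum 4 touched a boundary in 20.9% of cases, against 53.7% on 8q before 8q24 and 52.8% on 8p.

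Seen from the genes, 318 of 715 protein-coding genes on chromosome 8 had a boundary peak (44.5%, 40.9 to 48.1), beside 40.1% over chromosomes 1 to 22 and X. A peak anywhere over the span, with 1000 bp added at each end, was found for 470 (65.7%), beside 60.4%. Without the last window of 8q these shares were 37.7% and 61.1%. By region, a boundary peak was found for 83.8% of genes in the last window, 47.8% in 8q24 before 140 Mb, 38.6% on 8q before 8q24 and 34.6% on 8p. For lncRNA genes it was 17.0% on chromosome 8, beside 18.2% over all chromosomes, and 67.9% in the last window. Among protein-coding genes of at least 10 kb, 19 of 51 in the last window had a peak at both ends (37.3%), against 3 of 196 on 8p (1.53%) and 4.92% over all chromosomes. The gene table gives no strand, so starts and ends were not told apart.

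Of all 70 protein-coding genes in distal 8q24.3, from ZFP41 to COMMD5, 60 had a boundary peak (85.7%, 75.7 to 92.1), beside 40.1% over all chromosomes and 83.8% in the last window as a whole. The genes without one included a group of neighbours, PYCR3, ZNF623, ZNF707, CCDC166, MAPK15 and FAM83H, and, further on, CATSPERQ and ZNF251. None of these 8 stands in the list of 48 genes of the stretch, of which 46 had a boundary peak (95.8%, 86.0 to 98.8), so the share of the list is above that of the stretch it was drawn from. The listed genes without one were FBXL6 and the riboflavin transporter SLC52A2, which had no peak at all. A single peak of maximum coverage 10 and total signal 8980, from 144102317 to 144105215, lay across the neighbouring ends of SHARPIN, a subunit of the linear ubiquitin ligase complex, and MAF1, a repressor of RNA polymerase III. GPAA1, which attaches GPI anchors, and MAFA, a beta cell transcription factor, had maxima of 8. The ribosomal protein gene RPL8 and the elongation factor subunit EEF1D reached 6, the helicase RECQL4 and the replication fork protein TONSL 4, and the heat shock regulator HSF1 and the gasdermin GSDMD 3. A maximum of 5 or more was reached by 18 of the 48, beside 14.5% of protein-coding genes over all chromosomes. No share at that height is given here for all 70 genes, so the listed genes are not compared with their stretch.

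The genes of chromosome 8 with most peaks over their span were all in 8q24. TRAPPC9, a trafficking complex subunit of 730.9 kb, had 56 peaks, or 7.64 per 100 kb. The lncRNA gene PVT1 had 40 (13.0 per 100 kb) and TSNARE1 36 (18.3 per 100 kb), both without a boundary peak at 1000 bp. Both calls depend on that distance. PVT1, with its lower end at 127794524, had a peak from 127796523 to 127797022. TSNARE1, with its lower end at 142212080, had its highest peak, of maximum 6, from 142213917 to 142214832. Both peaks begin within 2000 bp of the lower end, the larger boundary of the closing section. ADGRB1, an adhesion receptor best known from brain, had 32 peaks (32.9 per 100 kb), with a boundary maximum of 5. PLEC, which encodes the cytolinker plectin, had 25 peaks on 61.6 kb (39.3 per 100 kb), the highest rate of these 6. ZFAT had 24 peaks (6.73 per 100 kb) and a boundary maximum of 8. The very long genes CSMD1 on 8p and CSMD3 on 8q were sparser, with 6 peaks (0.291 per 100 kb) and 3 (0.247 per 100 kb). ERICH1 on 8p, of 116.5 kb, had 7 (5.91 per 100 kb).

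PLEC held 3 of the 10 peaks of highest total signal on chromosome 8 within its span, of 11356 at 143938143 to 143941541, 9670 at 143950652 to 143953050 and 9005 at 143941696 to 143944465, the last of which also lies within 1000 bp of the miRNA gene MIR661. These peaks were 3399, 2399 and 2770 bp wide, against a median of 691 bp, and their maxima were 9, 10 and 7.

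The lymphocyte antigen 6 cluster at 142 to 144 Mb encodes small GPI-anchored surface proteins, with neighbours such as the aldosterone synthase gene CYP11B2. Of 18 listed genes 12 had a boundary peak (66.7%, 43.7 to 83.7), beside 40.1% of all protein-coding genes and 83.8% of those in the last window. THEM6 had a maximum of 10, from a peak of total signal 9084 that begins 779 bp outside the gene. PSCA, a prostate stem cell antigen, reached 8 and GPIHBP1, which carries lipoprotein lipase in capillaries, 6. GML and JRK had peaks inside their spans alone (2 and 3), and LY6H had none.

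Peaks lay both at MYC and over PVT1, a far longer gene of 306.7 kb, so their peak numbers are not directly comparable. MYC, at 127735434 to 127742951, had 3 peaks over its span. The peak at its lower boundary, from 127734901 to 127735764, had a maximum of 4 and a total signal of 1851 and also counts for the lncRNA gene CASC11. The higher one, from 127737741 to 127739013 inside the gene, had a maximum of 5. PVT1, a lncRNA gene frequently co-amplified with MYC, held the peak with the highest total signal of the whole chromosome, 15412, from 127851440 to 127854732. It was 3293 bp wide with a maximum of 12, and its nearest protein-coding gene was MYC at a distance of 108489 bp.

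Over the 23 listed genes of the MYC neighbourhood, 5 of 11 protein-coding genes and 3 of 12 lncRNA genes had a boundary peak, near the 40.1% and 18.2% of such genes over all chromosomes. TRIB1, a pseudokinase gene induced by growth and stress signals, had the highest, with a maximum of 13 and a total of 6076 at 125429281 to 125430782. The sterol synthesis enzyme SQLE and LRATD2 reached 7, LINC02912 reached 5, CCAT1, CASC11 and MYC reached 4, and ASAP1 reached 3. Peaks inside the span alone were found for CYRIB (12), ADCY8 (8), CCDC26 (8), NSMCE2 (7), CASC8 (4) and CASC21 (2), as for PVT1. No peak was listed at CASC19, CCAT2, GSDMC, PCAT1, PCAT2, POU5F1B, PRNCR1 or WASHC5. The window that holds MYC had 153 peaks and 9 protein-coding genes, and 8.50% of its peaks touched a boundary.

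Elsewhere in 8q24, ATAD2, a bromodomain ATPase, and NTAQ1 shared a peak of maximum 13 across their neighbouring ends, at 123416312 to 123417234. CHRAC1, a histone-fold subunit of a chromatin remodelling complex, had 12. The hypoxia- and stress-responsive gene NDRG1 had a boundary maximum of 9 and 11 peaks over its span. RNF139, which encodes an endoplasmic reticulum ubiquitin ligase and shares its peak with the divergent transcript RNF139-DT, and DENND3 reached 10. The cohesin subunit gene RAD21, where 8q24 was taken to begin, had no peak.

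On 8p the outer 20 Mb and the inner 25 Mb differed. This division, at the start of the densest window of 8p, was not part of the planned results. The outer part had 138 peaks for 136 protein-coding genes, 6.90 per Mb, and 23.5% (17.2 to 31.3) of its genes had a boundary peak. Of these 136 genes 86 lie at positions also listed under a patch sequence, described next. The inner part had 406 peaks for 156 genes, 16.2 per Mb, and 44.2% (36.7 to 52.1) of its genes had one. The densest window, at 20 to 25 Mb, held 141 peaks and 47 genes, of which 22 had a boundary peak. Its highest peak, with a maximum of 8, lay at ATP6V1B2, a subunit of the vacuolar proton pump.

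The sparse outer part of 8p includes the defensin genes, which encode antimicrobial peptides and lie in several near-identical copies. Of 25 defensin genes 2 had a boundary peak (8%), beside 40.1% of all protein-coding genes. They were DEFB106B and DEFB130A, each with a maximum of 2, and DEFA1, DEFA1B and DEFA3 had none. Some of the positions of this stretch are also listed under another sequence name. A sequence called CHR_HG76_PATCH carried 88 peaks at positions 6636944 to 12554826, where chromosome 8 itself carried 55. The name does not give the patch's chromosome, and no table used here places it. Among the 86 protein-coding genes of chromosome 8 at those positions 17 had a boundary peak (19.8%), and without them the share on 8p was 84 of 206 (40.8%, 34.3 to 47.6) in place of 34.6%. The part of the patch in the low share of 8p was not tested.

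High peaks in outer 8p lay at a duplicated family. FAM86B1, a member of the FAM86 methyltransferase-like family, had the peak with the second highest maximum of the chromosome, 23, with a total of 10154 at 12193847 to 12195035. The neighbouring ends of FAM85B and the pseudogene FAM86B3P shared a peak of 15, and FAM86B2, with its divergent transcript FAM86B2-DT, had 11. All 6 FAM86 and FAM85 entries of the chromosome had a peak over the span. On the patch the highest peak also had a maximum of 23, with a total of 10034. Since these genes have near-identical copies, the copy that a read came from is uncertain.

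The 8p12 to 8p11 amplicon, a stretch gained in several cancers, carried boundary peaks at 24 of 34 listed genes (70.6%, 53.8 to 83.2), beside 40.1% of all protein-coding genes. The windows that hold these genes had lower shares over all their protein-coding genes, 56.7% of 30 at 35 to 40 Mb and 46.2% of 26 at 40 to 45 Mb. The share of the list is thus above that of the windows it was drawn from. AP3M2, an adaptor complex subunit, reached 8. The translation inhibitor EIF4EBP1, the metalloprotease ADAM9, TM2D2, which shares its peak with ADAM9, and the neighbours BAG4 and LSM1 reached 6. The histone methyltransferase gene NSD3 and HOOK3 reached 5, and the acetyltransferase KAT6A reached 4. FGFR1, the receptor gene that names the amplicon, had 2 peaks inside its span with a maximum of 3 and no boundary peak. ADAM32, ADRB3 and IDO1 had no peak, and ADGRA2 had 3 peaks inside its span.

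Genes of 8p known as tumour suppressors, death receptors and their neighbours had a boundary peak in 12 of 24 cases (50%, 31.4 to 68.6), an interval that holds the 40.1% of all protein-coding genes. MTUS1 reached 8, the extracellular chaperone gene CLU 7 and the acid ceramidase gene ASAH1 4. The death receptor TNFRSF10B had a maximum of 4 and the decoy receptor TNFRSF10D 3, whereas TNFRSF10A and TNFRSF10C had no peak. BIN3 and CSMD1 had peaks inside their spans alone, and DOK2 had none. A peak of maximum 13 and total 6718 spanned the neighbouring ends of KCTD9 and the mitotic phosphatase adaptor gene CDCA2, at 25458388 to 25459593.

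The long arm before 8q24 had 590 peaks over 71.8 Mb, 8.21 per Mb. Its peaks touched a boundary in 19.7% of cases, against 17.2% in 8q24. RRM2B, a p53-inducible subunit of ribonucleotide reductase, had a boundary peak of maximum 13 and total 6504, at 102238572 to 102239844. MTERF3, a mitochondrial transcription factor, and PTDSS1 shared one of 9, and the immediate early gene KLF10 reached 8. YTHDF3, a reader of the RNA mark m6A and a relative of the reader that the series concerns, had a boundary maximum of 5 and 2 peaks over its span. VIRMA, a subunit of the m6A writer complex, had 1 peak inside its span with a maximum of 2.

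A cluster of REXO1L pseudogenes, tandem copies at 85642530 to 85827839, held 43 peaks, 9 of them at 5 or more, with a median maximum of 4 and a highest of 9. It made up most of the 66 peaks in the window at 85 to 90 Mb. As with FAM86 genes, reads from such copies cannot be placed with certainty.

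Functional groups across the chromosome differed in how often they met a peak, each set beside 40.1% of all protein-coding genes. In the last window of 8q the share of protein-coding genes with a boundary peak was 83.8%. RPL8, EEF1D and AGO2 (translation), CHRAC1, TONSL and RECQL4 (repair) and CYC1, HSF1 and PUF60 (housekeeping) lie there, each with a boundary peak. Translation and ribosome genes had a boundary peak in 11 of 16 cases (68.8%, 44.4 to 85.8), with MTERF3 at 9, RPL8 and EIF4EBP1 at 6, RPL7, RPL30 and RPS20 at 4, and no boundary peak at EIF3E, EIF3H or ERI1. Replication, repair and cohesin genes had 16 of 27 (59.3%, 40.7 to 75.5). RRM2B, ATAD2 and CHRAC1 led them, the replicative helicase subunit MCM4 and the double-strand break factors PRKDC and NBN had 4 each, and the polymerase POLB, DSCC1, MCMDC2 and the Werner helicase WRN had no peak. MCPH1 had 1 inside its span.

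Housekeeping, stress and hypoxia genes had 19 of 32 (59.4%, 42.3 to 74.5), among them TRIB1, NDRG1, KLF10 and the adaptor protein gene YWHAZ with 5, and none at ATP6V1H or COX6C, while CCN4 had peaks inside its span alone. Zinc finger genes had 9 of 15 (60%, 35.7 to 80.2), with 9 at ZNF34 and 7 at ZNF250 and ZNF7. Many of the group, these highest members included, lie in the last window of 8q, where 83.8% of protein-coding genes had a boundary peak. ZNF251 and ZNF395 had peaks inside their spans alone, and ZNF572 had none. Innate immunity genes had 10 of 23 (43.5%, 25.6 to 63.2), led by SHARPIN, CLU and ZC3H3 (5). Of those 10, SHARPIN, ZC3H3, LY6E, GSDMD and PARP10 also lie in the last window of 8q. The interferon-induced antiviral factor gene LY6E reached 4 and the kinase gene RIPK2 3, with none at DEFB1, DEFB4A or GSDMC.

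Neuronal and neuroendocrine genes had 5 of 27 (18.5%, 8.18 to 36.7), none of them at 5 or more, with maxima of 3 at ARC, KCNQ3 and KCNV1. ADCY8 and ADRA1A had peaks inside their spans alone and CALB1 had none. Lung and epithelial genes had 5 of 13 (38.5%, 17.7 to 64.5). SFTPC, the surfactant gene that marks alveolar type II cells, had a boundary maximum of 3, TPD52 had 4, and ESRP1 and GATA4 had no peak, while GRHL2 had 1 inside its span. Some genes stand in more than 1 group, and neighbours that share a peak both count, as they did for 65 of the 467 boundary peaks.

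**Figure D5:**
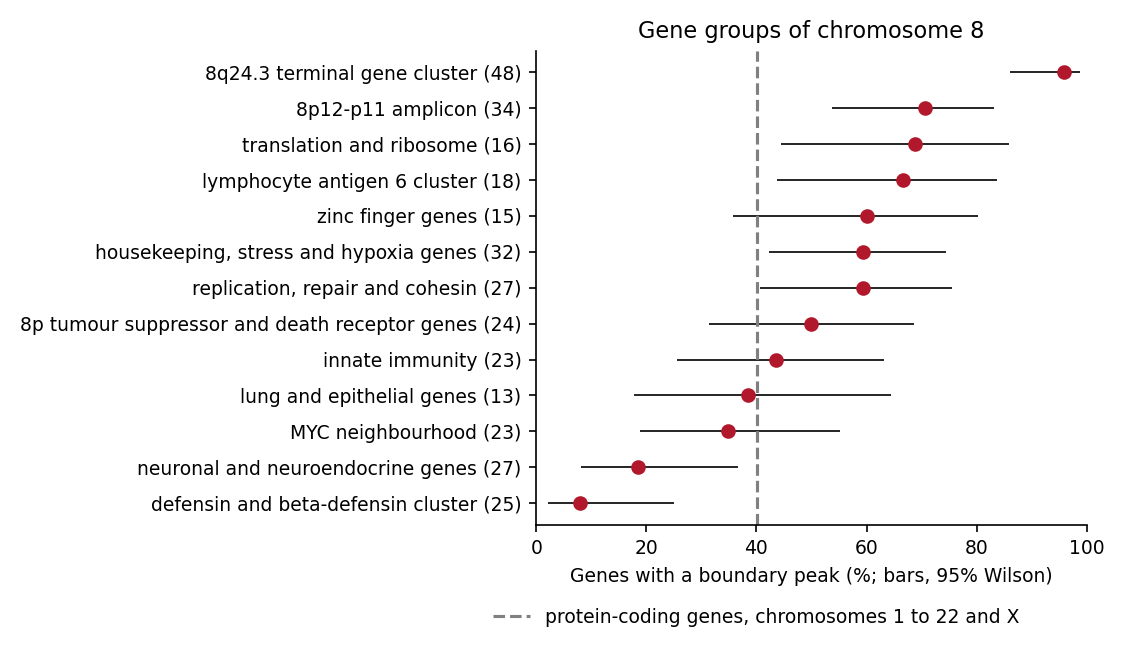
Percent of genes with a boundary peak in 13 groups of chromosome 8 genes, with 95% Wilson intervals and the number of members in brackets; the dashed line is 40.1%, the share of all protein-coding genes. The 48 listed genes of distal 8q24.3 lie highest at 95.8%, against 85.7% of all 70 protein-coding genes of that stretch, and the defensin genes lowest at 8%. The MYC neighbourhood includes 12 lncRNA genes.

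A maximum of 10 or more was reached by 21 peaks of chromosome 8, of which 13 lay in 8q24, 5 on 8p and 3 on 8q before 8q24. The last of them by total signal, tied at 10, lay between genes on 8p at 43239647 to 43240154. Among the other 20, a protein-coding gene boundary was touched by 11, a lncRNA boundary alone by 3 and neither by 6. The highest, with a maximum of 37 and a total of 10765, lay at 144767441 to 144768407 inside the uncharacterised lncRNA gene LOC105375805, 3817 bp from ZNF34. It was 967 bp wide, and its region of maximum coverage was from 144767814 to 144767815. Another compact peak, 178 bp wide with a maximum of 14, lay inside the transporter gene SLCO5A1 at 69690107 to 69690284, and NCOA2, a nuclear receptor coactivator gene, held one of 10 inside its span. Of the remaining high peaks of 8q24, one of 13 lay between genes, 7310 bp from WDR97, and those of 12 lay at the lncRNA genes LOC105375782 and RHPN1-AS1.

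The 10 peaks of highest total signal were also mostly in 8q24. Beside those at PVT1, PLEC, THEM6, SHARPIN and MAF1, LOC105375805 and FAM86B1, they were one of 8749 at LOC124902036, 1396 bp from GPIHBP1, and one of 7406 at CHRAC1.

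Short RNA genes were few. Of 5 tRNA genes 4 had a peak within 1000 bp, beside 43.8% of tRNA genes over all chromosomes. TRS-AGA2-5 had one of maximum 8, while TRY-GTA5-1, TRY-GTA5-2 and TRA-AGC8-2 lie beside each other and shared one of 2, and TRM-CAT1-1 had none. Of 90 miRNA genes 15 had one (16.7%, 10.4 to 25.7), beside 18.3% over all chromosomes, with a maximum of 7 at MIR661, 6 at MIR10400 and MIR6850 and 5 at MIR320A, MIR4469 and MIR7112. SNORD13 and SNORD54 reached 4.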

How the data were processed

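One CUT&Tag library made with S9.6 was used. The submitters' processing notes list SEACR 1.3, Bowtie2 2.4.2 with fastp 0.23.2, and SAMtools 1.9, deepTools 3.5.2 and bedtools 2.30.0, on build GRCh38, without roles. Not given in the sources used here were the threshold, the use of IgG as control, and whether duplicates were kept. The deposited signal values, total and maximum coverage per peak, are whole numbers. Sequencing depth is unknown.

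Peaks were placed by their middle. Gene spans came from RefSeq GRCh38.p14, and 8 planned results were computed with Python 3.11.15, pandas 2.3.3 and SciPy 1.17.1, after the overlap code was checked on simulated data. Shares carry Wilson and counts exact Poisson 95% intervals. Each chromosome's extent ends at its last gene or peak, and a short remainder joined the window before it. Members and the 14 gene lists were chosen with earlier results of these data known. Named genes were the 3 highest and the first 3 without a boundary peak per list, those at the 20 highest peaks, the 10 peaks of highest total signal, the 6 genes with most peaks, those at the highest peak of the 4 windows with most and with fewest peaks, and every MYC neighbourhood and m6A gene. Genes outside that rule, chosen after their values were seen, are also named. One gene that the rule chose is not reported here. Alternatives are given in the closing section. No sequence of chromosome 8 is printed.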

Additional observations from a re-analysis of the deposited data

Results flagged for a closer look

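Sequences other than the chromosome itself also carried signal: 109 peaks lay on 16 alternate sequences named for chromosome 8, outside the 2411 described, with maxima up to 12 and 10 peaks at 5 or more. The alternate sequences with most peaks, 34 at positions 143512083 to 143798317 and 23 at 141337093 to 141457276, lie at positions where chromosome 8 itself carried 30 and 21. Others differed more, with 5 against 0 at 1414367 to 1627411 and 6 against 1 at 946998 to 1113864. No alternate sequence had fewer peaks than chromosome 8 at its positions, which were set by its own peaks. The part of the alternate sequences in the peak numbers at the end of 8q was not tested. No control library was used beside them.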

How the results depend on the processing

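Of 44 alternatives over 8 results, 21 stayed within the counting interval of the value reported or, for the rank correlation (0.241 to 0.549), kept its sign, 21 moved and 2 reversed. The reversals were those of the ratio of 8q to 8p, 0.928 without the 5 Mb next to each chromosome end and 0.982 without the last window of 8q. Leaving out that window or the patch positions was chosen after seeing the data, except for the rank correlation. Without the window there were 11.9 peaks per Mb, and 37.7% of genes had a boundary peak and 61.1% one over the span. With peaks of maximum coverage 3 or more, chromosome 8 had 7.82 peaks per Mb, the arm ratio was 2.04, 8q24 held 63.8% of its peaks, 30.0% touched a boundary, and 37.1% of genes had a boundary peak and 49.0% one over the span. With 5 or more, chromosome 8 held 4.60% of all peaks and 1.39 per Mb, 55.7% of them in 8q24 and 59.7% at a boundary, with 16.8% and 20.1% of genes. Fewer peaks by construction lower these densities and gene shares. On the other chromosomes 39.9% of genes had a boundary peak, 32.0% at 3 or more and 14.4% at 5 or more. Boundaries of 500 bp gave 15.6% of peaks and 38.9% of genes, and of 2000 bp 25.1% and 48.7%. Protein-coding genes alone gave 14.9% of peaks, and summits in place of whole peaks 16.9%. Dividing the arms at 44 or 46 Mb, or leaving out the patch positions, kept the arm ratio within its interval (1.49 to 1.58). Without the patch positions the share of 8p genes with a boundary peak was 40.8%, beyond the interval of the 34.6% with them. Leaving out the 10 peaks of highest total signal on each chromosome moved none of the 6 results recomputed, which are among the 21. Removing so few of the 2411 chromosome 8 peaks could hardly move a share or density beyond its interval. No paired analysis was possible because 1 library had a peak list. Depth is unknown, which leaves signal below the peak threshold unseen.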
